A study of Mus musculus with 43 samples.

Results

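Peritoneal metastases were compared with primary tumour as sites from which the same adoptively transferred CD8+ T cells were recovered in a pooled CRISPR knockout screen. The comparison was defined by site alone and took 11 libraries of the 41 with values, among 43 samples in the series: 5 of metastases (2 under IgG and 3 under anti-PD-1) and 6 of primary tumour (3 under IgG and 3 under anti-PD-1). In all of them, OT-I T cells, from Rag2/OT-I stock and with a receptor for an ovalbumin peptide, carried Cas9 knocked into the Rosa26 locus and the marker CD90.1, and each cell had been transduced with a lentiviral library of sgRNAs against metabolic genes. The host mice, 6–12 weeks old and themselves carriers of Rosa26-Cas9, bore KPC_OVA, a murine pancreatic ductal adenocarcinoma line made to express ovalbumin, injected orthotopically in the pancreas. From the day of transfer they received anti-PD-1, an antibody that blocks the inhibitory receptor PD-1, or IgG as control, and the T cells were sorted 7 days after transfer. The labels number the libraries as biological replicates and do not say how many animals each one pools, so p-values measure the spread between these libraries. The tumours came from 1 cell line with a foreign antigen, and all T cells shared 1 receptor.

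In such a screen each T cell carries an integrated sgRNA, and the abundance of that sgRNA in genomic DNA follows the number of descendants of the cells that held it. An sgRNA that becomes rarer than nontargeting sgRNAs marks a gene whose loss lowers the recovery of the cells, through fewer divisions, lower survival or poorer arrival at the site, which the readout does not separate. Levels below are log2(signal + 1) averaged over the 5 sgRNAs of a gene, relative to the nontargeting median, that of the 250 nontargeting sgRNAs in the same library. A level of 0 thus means the abundance of a typical nontargeting sgRNA, and a difference is metastases minus primary tumour on the log2 scale. T cells that divide after activation need new nucleotides, and pyrimidines are made de novo in a short chain of enzymes. CAD catalyses the opening steps, DHODH oxidises dihydroorotate to orotate at the inner mitochondrial membrane and hands the electrons to ubiquinone, and UMPS turns orotate into UMP.

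One library needs its label stated before any result. The title of Mets_PD1 replicate 2 names metastases, whereas its tissue and source labels name spleen, and genomic DNA holds no expression by which the site could be checked. Over the nontargeting sgRNAs this library correlated most with Tumor_PD1 replicate 2 (Pearson's r = 0.64), then with Liver_IgG replicate 2 (r = 0.60). Its correlation with the nearest spleen library, Spleen_PD1 replicate 1, was 0.53, and with the other spleen libraries 0.31 to 0.43. With the other metastasis libraries it was 0.32 to 0.49, so the nearest spleen library was closer than any of them. These correlations are given as a description and were not tested. It was kept, by its title, and the main results are also given without it.

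The metastasis libraries were less even than those of primary tumour. The SD of the nontargeting sgRNAs, which target no gene, was 1.78 and 2.12 under IgG and 1.93, 2.66 and 1.70 under anti-PD-1 in metastases, with Mets_PD1 replicate 2 the highest, and 1.43 to 1.65 in the 6 libraries of primary tumour. The ranges did not overlap, and the means were 2.04 ± 0.38 (SD, n = 5) and 1.57 ± 0.08 (n = 6), a difference of 0.47 (two-sided exact permutation of the site labels within treatment, p = 0.005, the smallest that the 200 permutations can give, adjusted p = 0.02 over 4 measures). For many sgRNAs the lowest value among the libraries of a replicate number was shared by at least 2 of them. The share of sgRNAs at such a lowest value was 9.86% ± 5.78 (SD, n = 5) in metastases and 3.52% ± 0.64 (n = 6) in primary tumour (exact permutation p = 0.015, adjusted p = 0.03), with 19.3% in Mets_PD1 replicate 2 and 4.04% in Mets_PD1 replicate 3, the latter within the tumour range of 2.78% to 4.24%. Without Mets_PD1 replicate 2 the differences were 0.32 in SD (exact permutation p = 0.01) and 3.98 percentage points in the share (exact permutation p = 0.03), against 6.34 with it. The share of the signal held by the most abundant 1% of sgRNAs (means 9.84% and 8.31%, exact permutation p = 0.255) and the summed signal (p = 0.705) missed the threshold. Compared within the same replicate number and treatment, the nontargeting SD was higher in metastases by 0.44 on average over 5 pairs (exact sign-flip p = 0.0625, the smallest that 5 pairs allow).

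**Figure D1:**
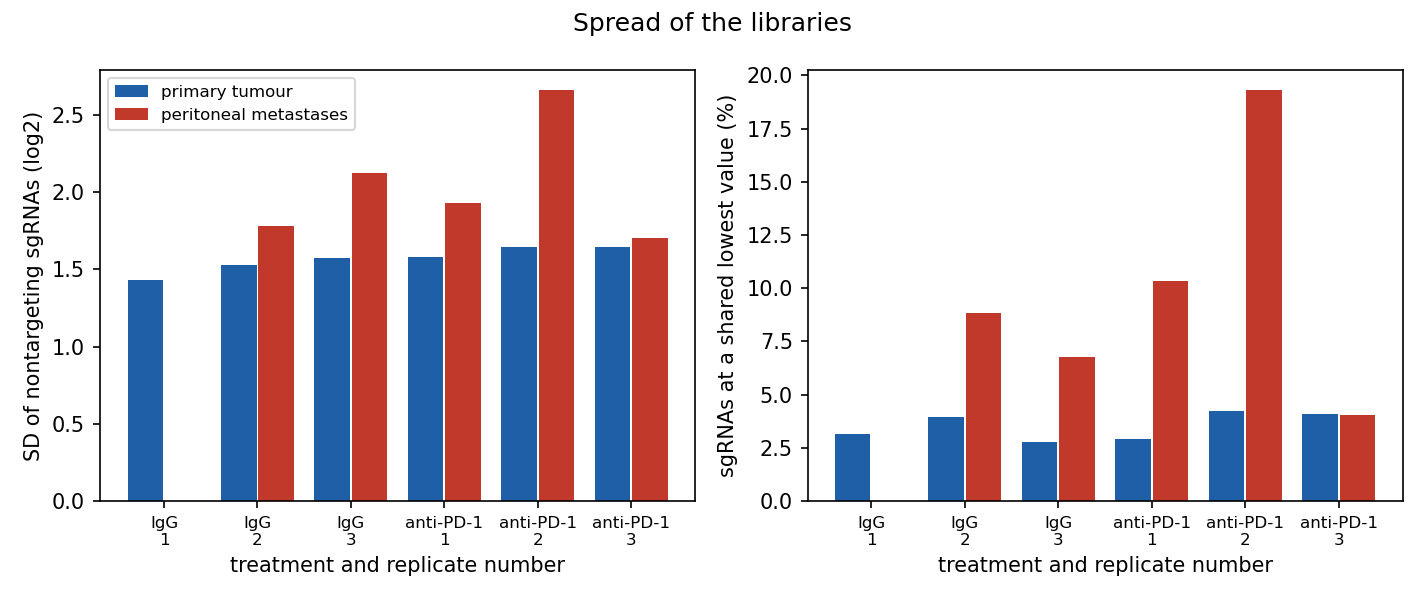
SD of nontargeting sgRNA levels in log2 units (left) and share of sgRNAs at a shared lowest value in percent (right) in each library, by treatment and replicate number. Primary tumour is blue and peritoneal metastases are red; IgG replicate 1 has no metastasis library with values. The 5 metastasis libraries lie between 1.70 and 2.66 in SD, above the 6 tumour libraries at 1.43 to 1.65.

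Each metastasis library resembled the primary tumour of its own number and treatment. Over the 250 nontargeting sgRNAs, the 5 own pairs correlated at r = 0.64 to 0.71, the 25 other pairs of a metastasis and a tumour library at 0.36 to 0.61, and metastasis libraries with each other at 0.30 to 0.51. In 5 of 5 cases the own tumour library was the best match among the 6. Which libraries came from the same transduced cells is not given in the sources used here, and T0 itself has 3 libraries. These correlations were not tested and are given as a description.

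Sites were then compared gene by gene, with treatment as covariate, over the 2078 genes of the library. Dhodh and Umps rose in metastases relative to primary tumour, and no gene fell. These were 2 genes, or 0.0962% of those tested, with limma and a threshold of 0.05 on the Benjamini-Hochberg adjusted p, against 0% in the other direction. This fit is unpaired: with the pair of replicate number and treatment as a block no gene passed (Dhodh adjusted p = 0.0534, Umps adjusted p = 0.123). At an unadjusted p under 0.05, 9 genes (0.433%) were higher and 169 (8.13%) lower, a split that moved with the centring: 34 (1.64%) were higher and 63 (3.03%) lower with centring on the nontargeting mean, and 3 and 221 with values as deposited. The counts also moved with single libraries, to 18 and 159 without Mets_PD1 replicate 2, 8 and 319 without Mets_PD1 replicate 3, 14 and 159 without Mets_IgG replicate 3, 5 and 124 without Tumor_IgG replicate 1, and 5 and 137 without Tumor_PD1 replicate 3. The median difference of all genes was −0.27, with 77.8% of genes below 0 and 22.2% above, so that a gene with no particular difference sat slightly below 0; with centring on the nontargeting mean that median was −0.055 and the share 55.6%, and without Mets_PD1 replicate 2 the median was −0.17. The study's methods state a correction for batch effects between organs, and uncorrected values were not used here. A shared lowest value could be the same at both sites and differ between replicate numbers. For s_04241, an sgRNA of Ctps, it was 0.614 in Mets_PD1 replicate 2 and Tumor_PD1 replicate 2, and 0.527 in Mets_PD1 replicate 1. What the correction did to the difference between sites was not tested. Differences are given as fitted, and those of the main genes also relative to the median of all genes.

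**Figure D2:**
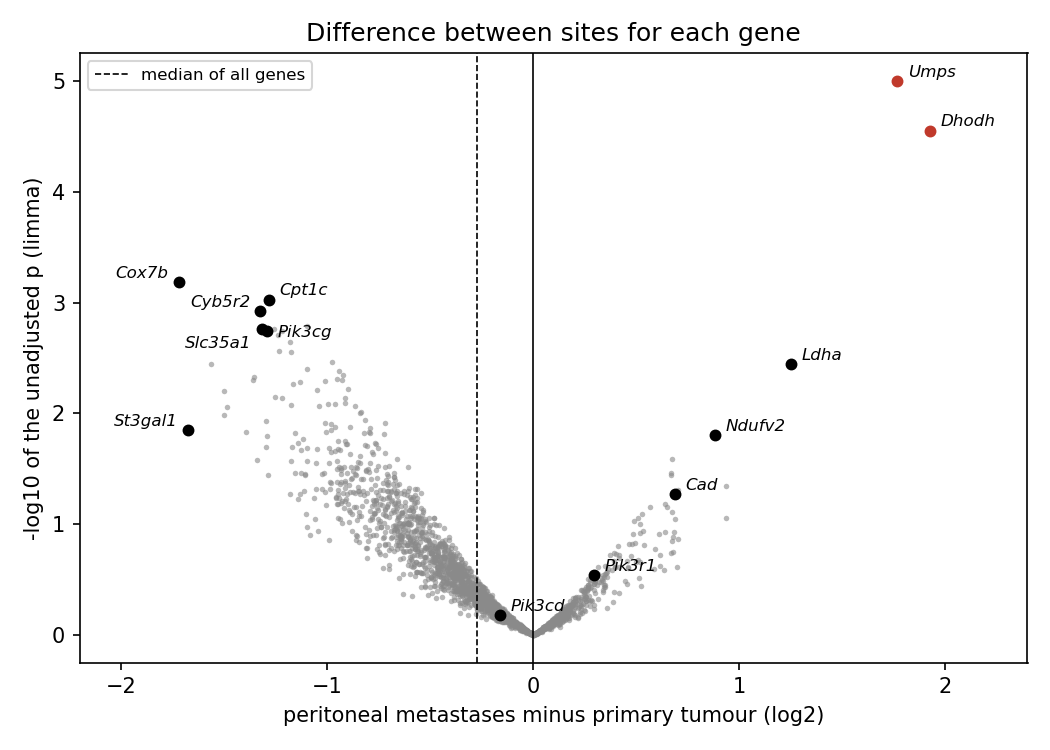
Difference between peritoneal metastases and primary tumour on the log2 scale (x axis) against −log10 of the unadjusted limma p (y axis) for each of the 2078 genes. Umps and Dhodh (red) passed the adjusted threshold and stand apart at 1.77 and 1.93; black points are other genes named in the text, and the dashed line is the median of all genes at −0.27.

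Dhodh encodes the mitochondrial enzyme of de novo pyrimidine synthesis. Its level was −0.51 and −0.039 in the metastasis libraries under IgG (replicates 2 and 3) and −0.75, −0.62 and −1.33 under anti-PD-1 (replicates 1 to 3). In primary tumour it was −1.90, −1.98 and −2.67 under IgG and −2.52, −2.19 and −3.82 under anti-PD-1. Every metastasis library was above every tumour library. The difference was 1.93 (SE 0.33, 95% interval 1.22 to 2.63), or 3.80-fold on the log2(signal + 1) scale (2.33 to 6.19), with adjusted p = 0.0289 (limma) in the unpaired fit, and 2.20 relative to the median of all genes.

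Umps encodes the enzyme of the next steps, from orotate to UMP. Its level was −0.95 and −0.44 in metastases under IgG and −0.90, −0.92 and −0.91 under anti-PD-1, against −2.35, −1.63 and −2.27 in primary tumour under IgG and −2.97, −2.76 and −3.21 under anti-PD-1. Again the sites did not overlap, and the metastasis libraries varied less among themselves (SD 0.22) than the tumour libraries (SD 0.57). The difference was 1.77 (SE 0.28, 95% interval 1.18 to 2.36), or 3.41-fold (2.26 to 5.13), with adjusted p = 0.0205 (limma) in the unpaired fit, and 2.04 relative to the median of all genes. Dhodh and Umps were also the only genes of the 2078 with all 5 metastasis libraries above all 6 tumour libraries (0.0962%), while 12 genes (0.577%) had all of them below.

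**Figure D3:**
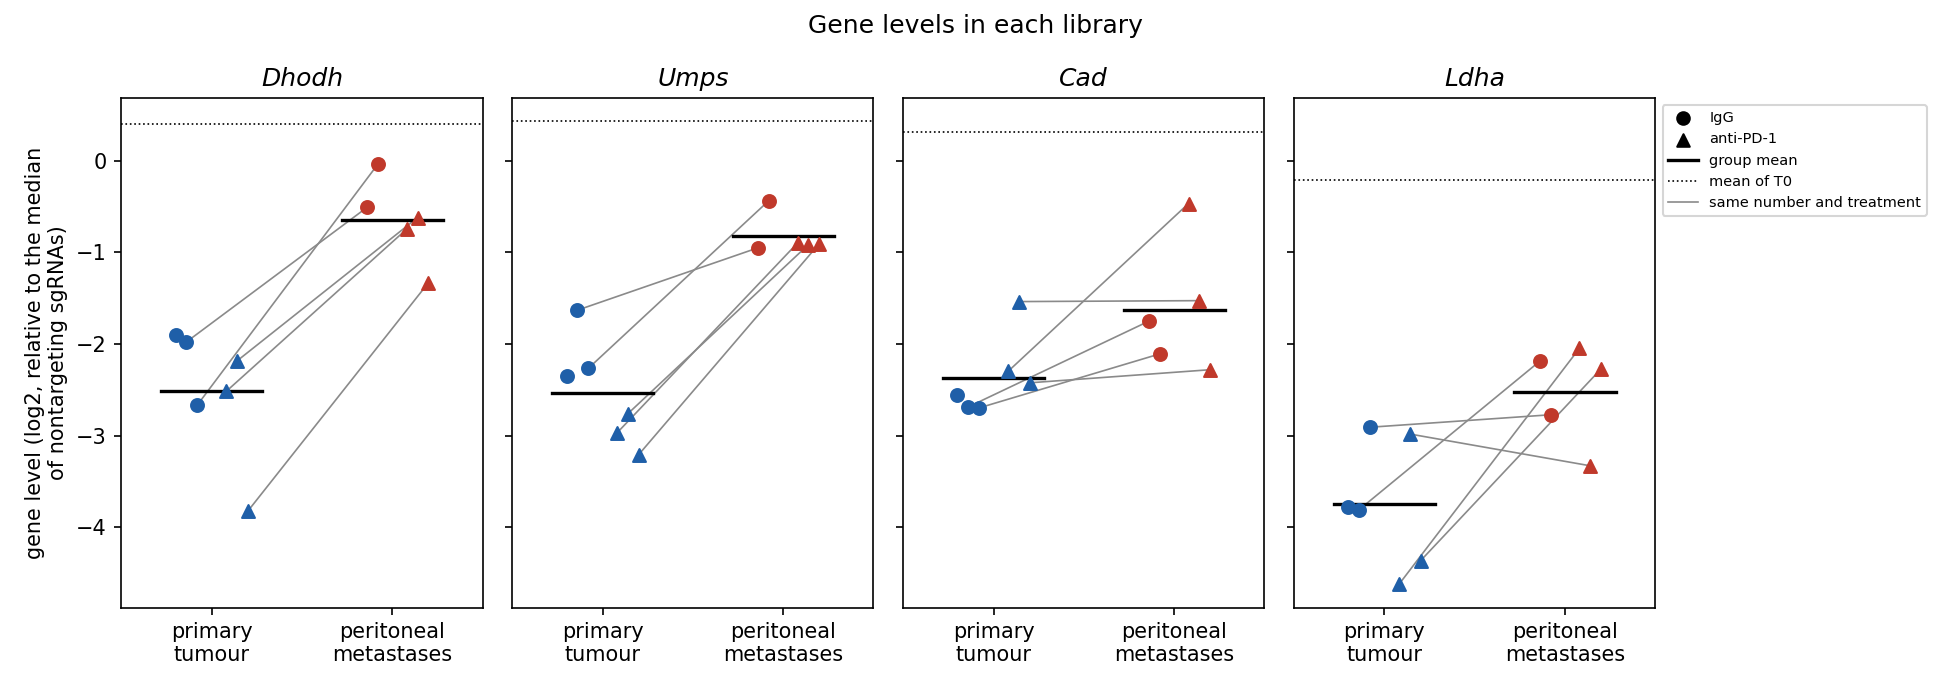
Level of Dhodh, Umps, Cad and Ldha in each library, in log2 relative to the nontargeting median. Blue marks primary tumour and red peritoneal metastases, circles IgG and triangles anti-PD-1, thick bars the site means, grey lines libraries of the same number and treatment, and dotted lines the T0 mean. For Dhodh and Umps all red points lie above all blue ones, and for Cad and Ldha the sites overlap.

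Single sgRNAs carried the same direction unequally. For Dhodh, all 5 sgRNAs were higher in metastases, with differences of 3.95 (s_04711), 1.26 (s_04712), 0.62 (s_04713), 1.89 (s_04714) and 1.59 (s_04715). The deposited signal of s_04711 was 41.3 to 157.9 in the metastasis libraries and 0.048 to 31.3 in the tumour libraries. For s_04713 the tumour mean stayed at 0.19, near the nontargeting median, and the metastasis mean was 0.81. For Umps, all 5 were higher as well, with differences of 2.27 (s_03666), 3.06 (s_03667), 1.17 (s_03668), 0.028 (s_03669) and 2.03 (s_03670), so s_03669 hardly differed. The signal of s_03667 was 47.2 to 188.5 in metastases and 3.54 to 63.2 in primary tumour. Such agreement over all 5 sgRNAs occurred in 24 genes (1.15%) in this direction and 191 (9.19%) in the other. In levels relative to the nontargeting median, the sites did not overlap for s_04711, s_03666 and s_03667, although the deposited signals of s_03667 did. On these levels, 18 of all 10390 gene-targeting sgRNAs (0.173%) had every metastasis library above every tumour library. None of the sgRNAs of Dhodh or Umps was at a shared lowest value in any of the 11 libraries. A low value that no other library shares is not counted by this measure. In Tumor_PD1 replicate 3, s_04711 was at −7.18, where a signal of 0 lies at −7.25.

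**Figure D4:**
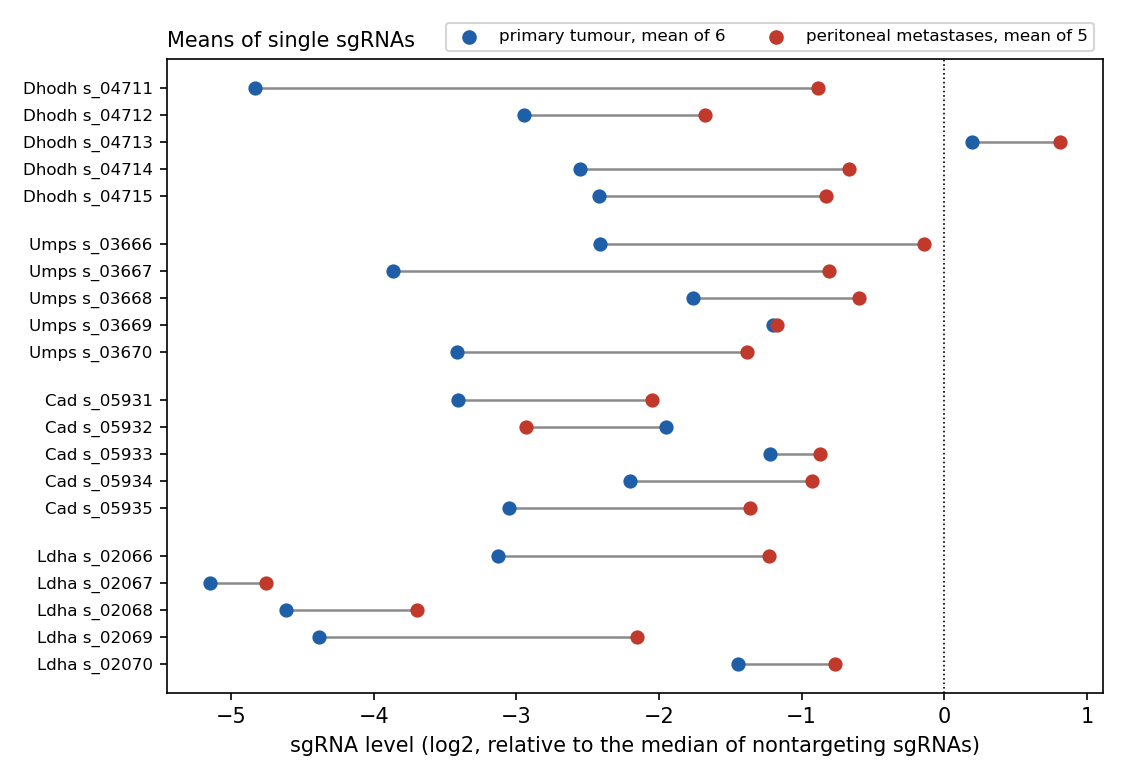
Mean level of each sgRNA of Dhodh, Umps, Cad and Ldha in primary tumour (blue, 6 libraries) and peritoneal metastases (red, 5 libraries), in log2 relative to the nontargeting median (dotted line at 0). For Dhodh and Umps each red point is to the right of its blue point, by 0.028 to 3.95, and for Cad s_05932 it is to the left.

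Within libraries of the same number and treatment, Dhodh was higher in metastases in 5 of 5 pairs by 1.47 to 2.63, and Umps in 5 of 5 by 0.68 to 2.30, which held in all pairs for 20 genes (0.962%) in this direction. With the pair of number and treatment as a block the differences were 1.98 for Dhodh (adjusted p = 0.0534, limma) and 1.75 for Umps (adjusted p = 0.123), so neither passed. With the replicate number alone as a block both passed (adjusted p = 0.0390 and 0.0406). Under anti-PD-1 alone the differences were 1.94 for Dhodh and 2.07 for Umps, and under IgG alone 1.91 and 1.39. No gene passed within either treatment, and the term for the difference between treatments was 0.036 for Dhodh and 0.68 for Umps, adjusted p = 0.998 and 0.996.

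The calls depended on the fit and on single libraries. With libraries weighted by their spread neither gene passed (1.78 for Dhodh, adjusted p = 0.0769, and 1.68 for Umps, adjusted p = 0.0593, limma), and neither did with values as deposited, without centring (adjusted p = 0.275 for both), with a robust spread and a mean trend together (0.154 for both) or with all 41 libraries in 1 fit (0.9998 for both). Without Mets_PD1 replicate 2, whose labels conflict, Umps still passed (1.73, adjusted p = 0.0352, limma) and Dhodh did not (1.85, adjusted p = 0.0667). Leaving out any 1 of the 11 libraries, the difference stayed between 1.67 and 1.93 for Umps and between 1.68 and 2.09 for Dhodh. Umps missed the threshold without Mets_IgG replicate 3 (adjusted p = 0.0982), Mets_PD1 replicate 1 (0.0742), Tumor_IgG replicate 1 (0.0620), Tumor_IgG replicate 3 (0.0791), Tumor_PD1 replicate 1 (0.0691) or Tumor_PD1 replicate 3 (0.0814). Dhodh passed only without Mets_PD1 replicate 3 (0.0321) or Tumor_PD1 replicate 2 (0.0421), and otherwise had an adjusted p of 0.0620 to 0.183: 0.0726 without Mets_IgG replicate 2, 0.183 without Mets_IgG replicate 3, 0.104 without Mets_PD1 replicate 1, 0.0620 without Tumor_IgG replicate 1, 0.0709 without Tumor_IgG replicate 2, 0.112 without Tumor_IgG replicate 3, 0.0691 without Tumor_PD1 replicate 1 and 0.0814 without Tumor_PD1 replicate 3. In each fit with 1 library left out, the pair held the lowest and the next lowest p of all genes.

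Against T0, the transduced T cells kept on the day of transfer, both genes were depleted in primary tumour, and less so in metastases. The T0 level of Dhodh was 0.27 to 0.50 in 3 libraries. Relative to T0, primary tumour was at −2.91 (adjusted p = 6.03e-06, limma), and metastases were at −0.98 (adjusted p = 0.0685), which did not pass. For Umps, with a T0 level of 0.086 to 0.62, primary tumour was at −2.96 (adjusted p = 3.33e-07) and metastases at −1.23 (adjusted p = 0.00327) relative to T0. Both sites share the T0 libraries. Of all genes, 374 (18%) fell and 4 (0.192%) rose in primary tumour against T0, and 466 (22.4%) fell and 3 (0.144%) rose in metastases.

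The other organs place the metastases among the sites. The level of Dhodh was −0.65 ± 0.47 (SD, n = 5) in metastases, −0.83 ± 1.45 (n = 6) in spleen and −1.14 ± 0.76 (n = 3) in liver, and lower in primary tumour at −2.51 ± 0.71 (n = 6) and in lung at −2.57 ± 1.83 (n = 6). For Umps the order began with −0.82 ± 0.22 in metastases and −0.82 ± 1.29 in spleen, followed by liver at −1.11 ± 0.68, primary tumour at −2.53 ± 0.57 and lung at −2.99 ± 1.69. Metastases thus stood next to spleen and liver, and primary tumour next to lung, but the libraries of spleen and lung were spread so widely that neighbours in this order overlapped. In the same fit with another organ in place of primary tumour, a comparison chosen after the data were seen, Dhodh in metastases differed from lung by 2.08 (SE 0.66) and Umps by 2.24 (SE 0.69), both with adjusted p = 0.425 (limma). The differences of Dhodh and Umps from spleen were 0.31 and 0.073 and from liver 0.71 and 0.44, and no gene passed in any of the 3 comparisons, with or without Mets_PD1 replicate 2. In the 12 libraries of draining and non-draining lymph nodes 46% to 94% of the nontargeting sgRNAs were at a shared lowest value, so levels relative to them were not set beside the others.

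Cad, the gene of the enzyme that opens the pathway, was at −1.75, −2.11, −0.47, −1.53 and −2.28 in the metastasis libraries and at −2.70 to −1.54 in primary tumour. The sites overlapped, and the difference of 0.69 (SE 0.33, 95% interval −0.013 to 1.39) did not pass (adjusted p = 0.548, limma), although it was above 0 in 5 of 5 pairs, by 0.010 to 1.83. Cad was depleted against T0 at both sites, at −2.68 in primary tumour (adjusted p = 1.62e-05) and −1.99 in metastases (adjusted p = 0.000489). Cmpk1, a kinase that phosphorylates UMP and CMP, differed the other way, by −0.79 (SE 0.44, adjusted p = 0.561), or −0.36 without Mets_PD1 replicate 1 and −1.04 without Mets_PD1 replicate 3, the extremes with 1 library left out. The other 7 of the 11 genes of pyrimidine synthesis and salvage lay between −0.62 and 0.54, with the lowest adjusted p at 0.558. Of the 11 genes, 2 thus passed in the unpaired fit, both higher, and 0 passed lower. These 2, Dhodh and Umps, were also the only calls among all 2078 genes (0.0962%). The list median was −0.15 beside −0.27 for all genes. Of the 21 genes of purine synthesis and salvage none passed, and the median was −0.34.

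Ldha had the next largest difference among genes with at least 4 sgRNAs higher in metastases. It encodes a subunit of lactate dehydrogenase, which turns pyruvate into lactate. Its level was −2.19, −2.77, −2.05, −3.33 and −2.27 in metastases and −4.62 to −2.91 in primary tumour, and of the metastasis libraries only Mets_PD1 replicate 2 lay within the tumour range. The difference was 1.25 (SE 0.37, adjusted p = 0.397, limma), with all 5 sgRNAs higher and 4 of 5 pairs above 0. Aldoa, the glycolytic aldolase, differed by 0.94 (adjusted p = 0.558) at levels of −7.24 to −3.95 in metastases, or by 0.43 without Mets_IgG replicate 2 and 1.53 without Mets_IgG replicate 3. None of the 28 glycolysis genes passed, and their median was −0.12. In the TCA cycle the extremes pointed in opposite directions, with Idh3a, a subunit of isocitrate dehydrogenase, at 0.94 (adjusted p = 0.548) and Dld, the lipoamide dehydrogenase shared by several dehydrogenase complexes, at −1.36 (adjusted p = 0.397). The median of the 26 genes was −0.32.

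Respiratory chain genes also lay on both sides. Ubiquinone reduced by DHODH is oxidised again at complex III. Ndufv2, a subunit of complex I, differed by 0.89 (adjusted p = 0.525, limma), or by 1.59 in the anti-PD-1 libraries alone and 0.011 in the IgG libraries alone. It was higher in 5 of 5 pairs, by 0.059 to 2.07, as were 20 of all genes (0.962%). In contrast, Ndufb5 and Ndufc2 of the same complex differed by −1.35 (adjusted p = 0.397) and −1.34 (adjusted p = 0.548). The median of the 37 genes of complex I was −0.28. Cox7b, a subunit of complex IV, had the lowest value of the 32 genes of complexes III and IV, −1.72 (SE 0.41, adjusted p = 0.341), with levels of −6.40 to −3.78 in metastases and −3.89 to −2.50 in primary tumour, but only 3 of its 5 sgRNAs were lower. Cyc1, the cytochrome of complex III, was at −1.12 (adjusted p = 0.547), and the median of that list was −0.24. The 15 genes of mitochondrial ATP synthase had the highest list median, −0.018, and none of them passed.

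Lists of genes needed by any dividing cell were strongly depleted at both sites, and more of their sgRNAs were at the lowest value in metastases. The 10 proteasome genes had a median of −5.37 against T0 in metastases and −4.53 in primary tumour and a median difference of −0.89, with none past the adjusted threshold. At an unadjusted p under 0.05, 3 of the 10 were lower, beside 8.13% of all genes, and 2 with centring on the nontargeting mean, beside 3.03%. Psmc4, an ATPase of the proteasome cap, was at −1.10 (adjusted p = 0.397, limma). Of the proteasome sgRNA values, 50.4% in metastases and 26% in primary tumour were at the lowest value. For the 19 ribosomal protein genes the median was −0.43, and these shares were 72.6% and 51.2%. Rpl35a differed by −0.96 (adjusted p = 0.445) and Rpl9 by −0.060 (adjusted p = 0.959), or 0.16 with centring on the nontargeting mean. The 26 subunits of RNA polymerases had a median of −0.16, with Polr1a, the largest subunit of RNA polymerase I, at −1.50 (adjusted p = 0.492) and Polr1d at −0.26 (adjusted p = 0.811). Genes of DNA replication pointed both ways, from Pold2 at −1.49 (adjusted p = 0.445) and Pole2 at −0.95 (adjusted p = 0.397) to Pole, the catalytic subunit of polymerase epsilon, at 0.69 (adjusted p = 0.558), with a median of −0.36 over 23 genes. Only 3 of the 5 sgRNAs of Pold2 were lower, and its difference was −2.08 to −0.94 with 1 library left out. Pole was at −0.16 in the IgG libraries alone. The part of the lower evenness of the metastasis libraries in these values was not tested.

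The remaining genes with the lowest differences and at least 4 sgRNAs lower, none of which passed the test, belonged in part to glycosylation. St3gal1, a sialyltransferase of O-glycans, was at −5.64 to −1.19 in metastases and −2.93 to −0.79 in primary tumour, a difference of −1.68 (SE 0.61, adjusted p = 0.519, limma). Slc35a1, which carries CMP-sialic acid into the Golgi, differed by −1.31 (SE 0.35, adjusted p = 0.341) and was lower in 5 of 5 pairs, as were 187 of all genes (9%). Galnt7, a GalNAc transferase of mucin-type O-glycans, was at −1.40 (adjusted p = 0.519). Ogt, which attaches O-GlcNAc to nuclear and cytosolic proteins, was at −1.50 (adjusted p = 0.424), lower in 5 of 5 pairs. Both Ogt and Slc35a1 had low mean levels, −5.76 and −4.97 in metastases and −4.28 and −3.51 in primary tumour. The part of sgRNAs at the lowest value in these differences was not tested. Of the 44 genes of mucin-type O-glycans and sialylation none passed, and 7 were lower and 0 higher at an unadjusted p under 0.05, a share to be read beside the 8.13% of all genes that were lower at this level. With centring on the nontargeting mean these counts were 4 and 1, beside 3.03% of all genes lower. Their median of −0.28 was beside −0.27 for all genes. Ugt2a1, a glucuronosyltransferase, and Cyb5r2, a cytochrome b5 reductase, differed by −1.56 (adjusted p = 0.397) and −1.32 (adjusted p = 0.341). Srm, the spermidine synthase, had at least 4 sgRNAs higher in metastases and differed by 0.70 (adjusted p = 0.548).

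None of the genes that the study names from this screen passed the threshold between the sites. Pik3cd, the catalytic subunit p110 delta of PI3K, was enriched against T0 at both sites, by 1.94 in metastases (adjusted p = 0.00226, limma) and 2.07 in primary tumour (adjusted p = 0.000905). Its levels were 1.11 to 3.12 and 0.95 to 3.24, and the difference was −0.16 (95% interval −0.91 to 0.60, adjusted p = 0.900), or 0.057 with centring on the nontargeting mean. Pik3r1, its regulatory subunit, was at 1.52 to 2.37 in metastases and 1.15 to 2.29 in primary tumour, with a difference of 0.30 (interval −0.28 to 0.87). Dgkz, a diacylglycerol kinase, was at −0.013 (interval −0.75 to 0.72), or 0.20 with centring on the nontargeting mean, and B3gnt2, which extends poly-LacNAc chains, was at −0.26 (interval −1.02 to 0.51). These intervals do not show that the levels were equal. Pik3cg, the p110 gamma subunit, and Pik3r5, its partner, lay below 0 at −1.29 (SE 0.35) and −1.24 (SE 0.33), both with adjusted p = 0.341 and lower in 5 of 5 pairs. Pik3cg was depleted against T0 in metastases, at −2.14 (adjusted p = 9.59e-05), while in primary tumour the value was −0.78 (adjusted p = 0.147). The 12 genes of the PI3K family had a median of −0.25, with none past the threshold.

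Genes of lipid metabolism gave no call either. Elovl1, which elongates saturated and monounsaturated very long-chain fatty acids, was at 0.0069 and −0.16 in metastases under IgG and −1.20, −1.52 and −1.03 under anti-PD-1, and in primary tumour at −0.66, −0.32 and −0.15 under IgG and −0.20, −0.76 and 1.02 under anti-PD-1. The sites overlapped under IgG. Under anti-PD-1 all 3 metastasis libraries were below all 3 tumour libraries, which held for 159 of all genes (7.65%), against 27 (1.3%) with all of them above, and Tumor_PD1 replicate 3 stood apart from the other tumour libraries. The difference was −0.57 (SE 0.38, adjusted p = 0.622, limma), or −1.27 in the anti-PD-1 libraries alone and 0.30 in the IgG libraries alone. With 1 library left out it was between −0.78 (without Mets_IgG replicate 2) and −0.23 (without Tumor_PD1 replicate 3), and the term for the difference between treatments had adjusted p = 0.996. The 7 elongases had a median of −0.56, with 6 of them below the median of all genes, and Elovl2 at −0.73 (adjusted p = 0.525) had no overlap between the sites, as 0.577% of all genes in this direction. Among 24 genes of fatty acid oxidation, Cpt1c, a carnitine palmitoyltransferase, had the lowest value, −1.28 (SE 0.32, adjusted p = 0.341), at −2.44 to −0.14 in metastases and −0.30 to 0.27 in primary tumour. Their median was −0.36. Kdsr, which acts early in sphingolipid synthesis, was at −1.30 (adjusted p = 0.547) in a list of 30 genes with a median of −0.30. Pccb, a subunit of the propionyl-CoA carboxylase, was at −1.22 (adjusted p = 0.341), and the 19 genes of branched-chain amino acid and propionate breakdown had a median of −0.44.

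Over all 48 gene lists, which hold 1166 of the genes, pyrimidine synthesis was the single list with a gene past the threshold. This restates the calls of Dhodh and Umps, the only 2 of all 2078 genes (0.0962%), in lists written with earlier results known. The list medians ran from −0.89 (proteasome) to −0.018 (ATP synthase), all were below 0, and 45 of 48 were within 0.25 of the median of all genes.

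**Figure D5:**
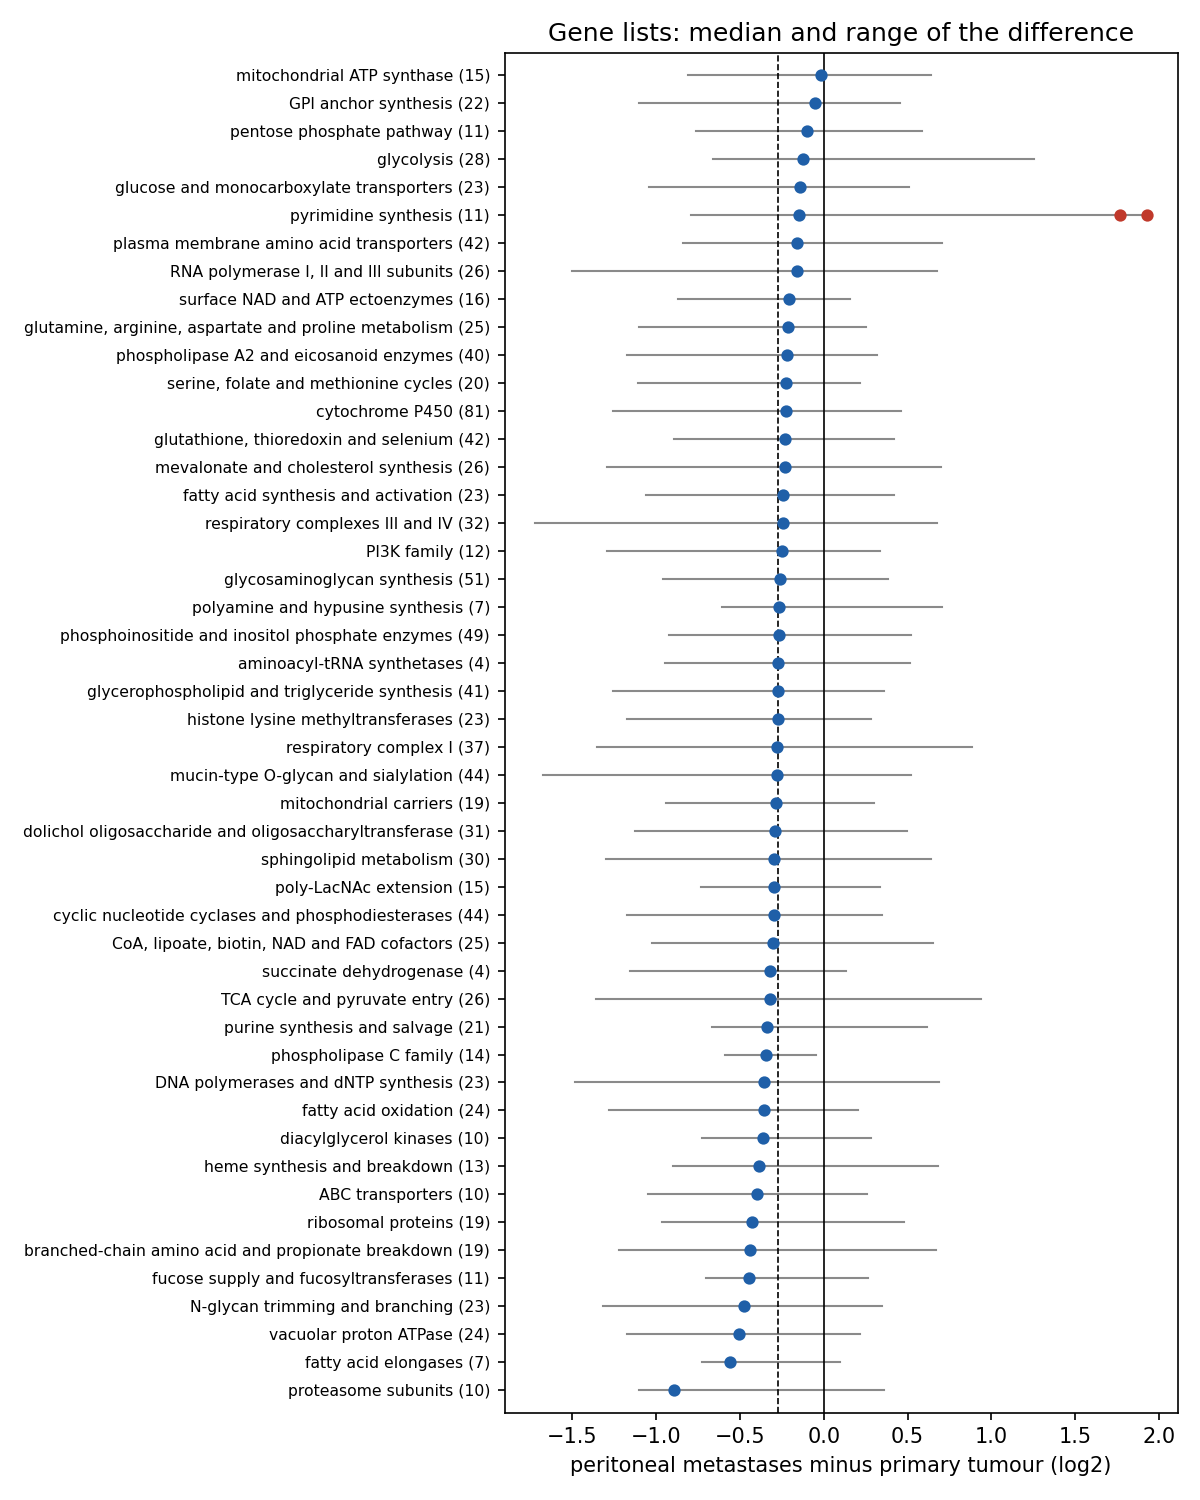
Median (blue points) and range (grey lines) of the difference between peritoneal metastases and primary tumour, log2, for the 48 gene lists, with the number of genes in brackets, ordered by the median. The dashed line is the median of all genes at −0.27. Medians lie between −0.89 and −0.018, and Dhodh and Umps (red) lie far to the right of the median of their list at −0.15.

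The difference between sites was also compared between treatments. No gene passed for the interaction of site and treatment (0% in either direction, limma), with 38 genes (1.83%) higher and 32 (1.54%) lower at an unadjusted p under 0.05. Ndufv2 (1.57) and Elovl1 (−1.57) were among those, each with adjusted p = 0.996, in a design with 2 metastasis libraries under IgG.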

How the data were processed

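The values are a signal per sgRNA that the authors deposited for 41 libraries: per the study's methods, read counts from MAGeCK-VISPR 0.5.3 were scaled to 250 nontargeting sgRNAs, and ComBat then removed batch effects between organs. ComBat settings and a genome build are not given in the sources used here. Since they are no longer whole reads, count models were not used, depth is unknown, and counting intervals are not given. Samples without values (2) are not analysed here. From 10640 sgRNAs, log2(signal + 1) was taken, centred on the nontargeting median of the library and averaged over the 5 sgRNAs of a gene. limma 3.58.1 in R 4.3.3 fitted site with treatment as covariate on the 11 libraries (prior degrees of freedom 7.87), with Benjamini-Hochberg adjustment over 2078 genes and a threshold of 0.05. T0 levels came from a fit with the 3 T0 libraries and 1 mean per group. The steps were tested on simulated data.

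The methods state 3 independent sequencing runs, and which library was in which run is not given in the sources used here. Replicate numbers were taken to pair the libraries: deviations from the group means over genes correlated within each of the 5 pairs of number and treatment, at r = 0.22 to 0.26. No such value was computed for other pairs, and deviations within a group sum to 0. These correlations thus have no reference, and the pairing was assumed and not tested.

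The members and gene lists were chosen with earlier results of these data known. Named genes are those past the threshold, the 10 per direction with the largest change among genes with at least 4 sgRNAs in that direction, 7 genes the study names, and up to 4 members of a list with the largest change. One gene that this rule names is not reported here. Symbols are those of the deposited file, and 2039 of 2078 are current in the gene table of RefSeq with 33 more listed as older symbols. The sequences of the sgRNAs were not used here.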

Additional observations from a re-analysis of the deposited data

Results flagged for a closer look

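In 86 groups checked (the 5 metastasis or 6 tumour libraries for each gene named in the text and for both measures of evenness), 6 held a library set apart from the others by Dixon's criterion, and chance alone sets apart about 5% of groups. Umps in Mets_IgG replicate 3 was at −0.44, where the other metastasis libraries lay between −0.95 and −0.90. Cad in Tumor_PD1 replicate 2 was at −1.54, against −2.70 to −2.30. Rpl9 in Mets_IgG replicate 2 was at −7.65, against −6.45 to −6.07. Elovl1 in Tumor_PD1 replicate 3 was at 1.02, against −0.76 to −0.15. Rpl35a in Mets_PD1 replicate 2 was at −5.65, against −4.91 to −4.75. Pccb in Mets_PD1 replicate 3 was at −0.15, against −1.75 to −1.39.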

How the results depend on the processing

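The differences of Dhodh and Umps were above 0 under all alternatives run (1.39 to 2.14 for both genes together over the alternatives other than leaving out a library), but their calls were not stable. The number of genes higher in metastases, 2 as reported, was 0 to 2 when any 1 library was left out. It was 0 with the replicate block of number and treatment, with the values as deposited, with library weights, with a robust spread and a mean trend, with all 41 libraries in 1 fit, and within the anti-PD-1 or the IgG libraries alone. It was 1 with the median of the sgRNAs, where Umps passed and Pola1 passed as the 1 gene lower. With the lowest 10% of sgRNAs left out it was 3, Dhodh, Umps and Polr2b, with Pold2 as the 1 gene lower. The replicate block of the number, log2(value + 10), centring on the nontargeting mean or on all sgRNAs, and lowest values set to 0 gave 2 and 0. The cause was not tested. Pola1 and Polr2b, which differed by −0.86 and 0.46 as fitted, are named after their values were seen.

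Some differences changed sign, and not only those near 0. Pole, at 0.69 as fitted, was at −0.16 in the IgG libraries alone. Elovl1, at −0.57 as fitted, was at 0.30 in the IgG libraries alone. Pik3cd was at 0.057 with the nontargeting mean for centring, 0.049 in the IgG libraries alone, and −0.34 to 0.081 with a library left out. Dgkz was at 0.0059 with the replicate block, 0.024 with the median of the sgRNAs, 0.20 with the nontargeting mean, 0.074 with the median of all sgRNAs for centring, 0.11 with library weights, 0.030 in the anti-PD-1 libraries alone, and −0.19 to 0.21 with a library left out. B3gnt2 was at 0.070 with the median of the sgRNAs and −0.57 to 0.052 with a library left out. Rpl9 was at 0.19 with log2(value + 10), 0.16 with the nontargeting mean, 0.027 with the median of all sgRNAs for centring, 0.76 in the anti-PD-1 libraries alone, and −0.23 to 0.41 with a library left out. Polr1d was at 0.071 with log2(value + 10) and 0.16 in the anti-PD-1 libraries alone. Polr2b, at 0.46 as fitted, was at −0.14 with the median of the sgRNAs and −0.092 in the IgG libraries alone.

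The interaction gave 0 genes with Mets_PD1 replicate 2 left out (81 higher and 31 lower at an unadjusted p under 0.05), with the replicate block (41 and 29) and with log2(value + 10) (24 and 28). With the replicate block, as differences within number and treatment, the nontargeting SD was higher in metastases by 0.44 (exact sign-flip p = 0.0625) and the share of sgRNAs at the lowest value by 6.27 percentage points (p = 0.125). Both kept their direction with any 1 library left out, at p of at most 0.05 (0.32 to 0.55 and 3.98 to 7.80 percentage points). Depth is unknown for these values, and at both sites sgRNAs at the lowest value bound what can be seen of a further fall.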
